A study of Mus musculus with 15 samples.

Results

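The Wnt ligands and the proteins that release, receive, or block them were followed in RNA-Seq data from the brains of E16.5 mouse embryos with a point mutation in Tbr1. Members were chosen by a rule on gene symbols, set with earlier results of these data known. It took the Wnt ligands, the frizzled receptors (Fzd), the secreted frizzled-related proteins (Sfrp), and the dickkopf proteins (Dkk). Lrp5, Lrp6, Ryk, Porcn, Wls, Wif1, Axin2, and Lef1 were included by name. This rule found 44 of the 19475 genes in the expression table. A further gene that fits the rule, Wnt8a, was not analysed here. By role, the members are 18 ligands, 2 proteins of ligand processing, 10 receptors, 3 coreceptors, 9 secreted antagonists, and 2 genes of feedback and nuclear response. A mean of at least 5 normalized read counts over all embryos was required for testing. It was met by 41 members, and Wnt2, Wnt10b, and Dkk4 fell below it.

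Wnt ligands are lipid-modified in the secreting cell by Porcn and carried to its surface by Wls. On the receiving cell they bind a frizzled receptor together with the coreceptors Lrp5 or Lrp6, which stabilizes beta-catenin and lets it act with Lef1 and related factors on target genes such as Axin2, while Ryk is a receptor that also serves other branches. The Sfrp proteins and Wif1 bind the ligands outside the cell, and most Dkk proteins block the Lrp coreceptors. In the embryonic brain, Wnt signals from the cortical hem pattern the hippocampus, and Wnt7a and Wnt7b direct the growth of brain vessels.

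The embryos were of 3 genotypes on a C57BL/6J background, with 5 embryos (3 females and 2 males) in each. WT embryos carried no mutation. The embryos labelled Tbr1 hetero and Tbr1 homo, here Tbr1+/K228E and Tbr1K228E/K228E, carried the K228E knock-in in exon 1 of 1 or of both copies of Tbr1, from a floxed line whose neomycin cassette was removed with protamine-Cre. TBR1 is a T-box transcription factor of deep-layer cortical neurons. The mutation is present in every cell of the embryo, and the tissue is described as whole brain in the series and as forebrain in the paper.

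Tbr1 itself was higher in Tbr1K228E/K228E than in WT embryos (log2 fold change 1.69; limma, Benjamini–Hochberg adjusted p = 0.00437). Mean normalized read counts were 3537 in WT, 6269 in Tbr1+/K228E, and 11366 in Tbr1K228E/K228E embryos. The mutation changes 1 residue and removes no exon, so that these levels do not check the labels as the loss of a knocked-out gene would. Neocortical neuron markers were present in every embryo, with summed levels over 11 genes of 27394 to 61110 in WT, 41121 to 61448 in Tbr1+/K228E, and 31739 to 63096 in Tbr1K228E/K228E embryos. The embryos differed in other tissue within each genotype. Summed levels of 18 Hox genes, which mark the hindbrain and spinal cord, ran from 8.20 to 3277 in WT, from 7.86 to 3966 in Tbr1+/K228E, and from 7.77 to 576 in Tbr1K228E/K228E embryos. For 13 meningeal genes the summed levels were 555 to 35152, 4806 to 20515, and 745 to 23977, with the lowest in WT embryo 3 and Tbr1K228E/K228E embryos 3 and 4. The read counts are from bulk tissue, in which fewer cells of a type and less RNA per cell cannot be told apart.

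In WT embryos, Wnt7b was the most abundant ligand. Levels can be compared between genes only per length, and they were therefore divided by the length of all exons of a gene together. Wnt7b had 546 ± 83.0 (SD, n = 5) normalized read counts per kilobase, followed by its close relative Wnt7a with 269 ± 38 (SD, n = 5) and by Wnt5a with 109 ± 14.3 (SD, n = 5) and Wnt3 with 104 ± 7.99 (SD, n = 5). Wnt5a, a ligand known for signals that do not use beta-catenin, and Wnt3 did not differ beyond their spread. The next ligands in order were Wnt4 with 65.4 and Wnt2b with 45.5 counts per kilobase, and Wnt10b had the lowest level, with 0.662.

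Among the other roles, the leading antagonist, processing protein, receptor, and coreceptor were nearer to Wnt7b than Axin2 was. Sfrp1, a secreted antagonist, had 539 ± 109 (SD, n = 5) normalized read counts per kilobase, which overlapped with Wnt7b. Porcn had 456 ± 32.5 (SD, n = 5), Fzd1, the leading receptor, had 444 ± 26.4 (SD, n = 5), and Ryk had 402 ± 26.4 (SD, n = 5). Axin2, a feedback inhibitor and a common readout of beta-catenin signaling, had 275 ± 34.3 (SD, n = 5). Receptors were more even than ligands, as all 10 frizzled genes lay between 18.6 (Fzd5) and 444 counts per kilobase, whereas the 18 ligands ran from 0.662 to 546. Among the antagonists, Sfrp2 (299 counts per kilobase) and Dkk3 (262) followed Sfrp1, and Dkk4 was at 0.744.

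**Figure D1:**
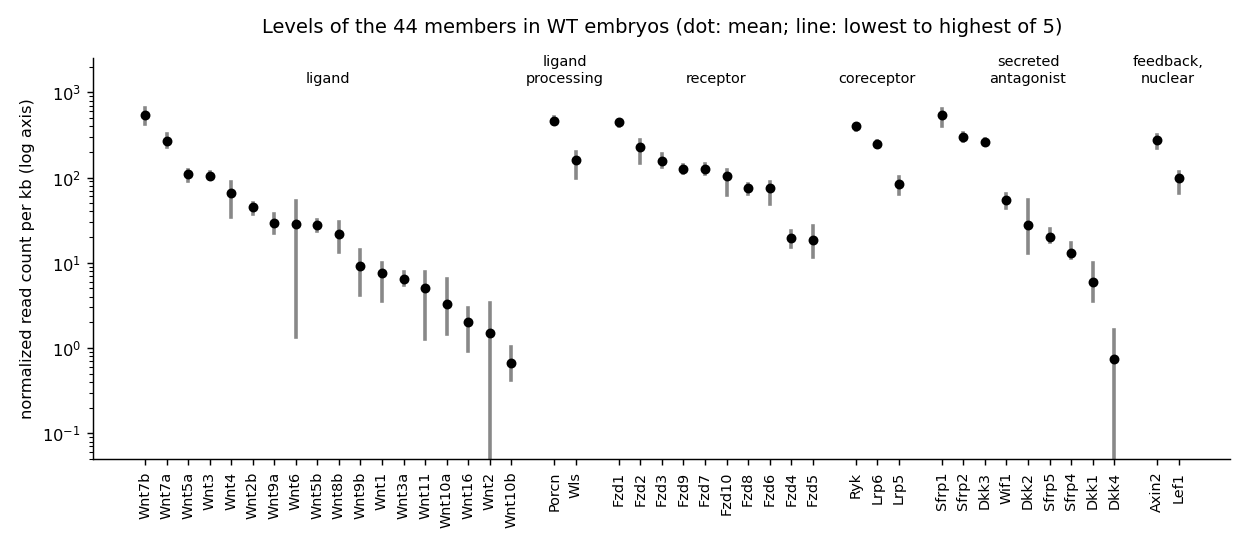
Levels of the 44 members in the 5 WT embryos, as normalized read counts per kilobase of exon on a log axis, grouped by role. Dots are means and lines run from the lowest to the highest embryo; Wnt7b (546) and Sfrp1 (539) stand highest, and the lines of Wnt2 and Dkk4 reach the lower edge because some embryos were at 0.

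Because Wnt7b and Wnt7a are paralogs, the sequences that reads must tell apart are shown for the middle of their coding regions. Both lie on minus strands of GRCm38, and the stretches come from its annotated transcripts. The Wnt7a stretch spans coding bases 561 to 680 of 1050, at chr6:91394409-91394418 in exon 3 and chr6:91366219-91366328 in exon 4. The Wnt7b stretch spans coding bases 582 to 701 of 1071, at chr15:85543669-85543678 in exon 3 and chr15:85537759-85537868 in exon 4. Capitals mark the 23 of 120 aligned bases at which the genes differ.
Wnt7a: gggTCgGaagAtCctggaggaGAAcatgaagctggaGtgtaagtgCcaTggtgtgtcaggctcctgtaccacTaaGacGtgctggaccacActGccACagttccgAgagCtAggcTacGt
Wnt7b: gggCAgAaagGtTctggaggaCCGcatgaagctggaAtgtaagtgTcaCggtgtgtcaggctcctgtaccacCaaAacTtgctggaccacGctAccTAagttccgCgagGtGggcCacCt
The longest run that the coding regions share, at the center of these stretches, is 23 bases, and 805 of 1046 aligned coding bases (77.0%) are identical. A read from either gene therefore meets differences. Over all 946 pairs of members, the longest run shared by their annotated transcripts was 47 bases, and no pair shared a run as long as a sequencing read.

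Wnt7b was lower in Tbr1K228E/K228E embryos than in both other genotypes. It spans chr15:85535437-85582473 on the minus strand. Its normalized read counts in WT embryos 1 to 5 were 2688, 2820, 3205, 2083, and 2584. In Tbr1+/K228E embryos they were 2129, 2731, 2648, 3135, and 2656, and in Tbr1K228E/K228E embryos 1669, 1538, 1684, 1353, and 1461. The highest Tbr1K228E/K228E embryo lay below the lowest embryo of either other genotype, whereas WT and Tbr1+/K228E embryos overlapped over most of their range. The log2 fold change between Tbr1K228E/K228E and WT embryos was -0.79 (95% interval -1.02 to -0.55) and passed the correction over all tested genes (limma, Benjamini–Hochberg adjusted p = 0.00493). The two-sided exact permutation test of Wnt7b alone gave p = 0.00794, the smallest that 5 against 5 embryos allow. Against Tbr1+/K228E embryos the log2 fold change was -0.78 (95% interval -1.01 to -0.55) and the exact permutation p was the same (limma, Benjamini–Hochberg adjusted p = 0.00897). Both comparisons use the same Tbr1K228E/K228E embryos. With 1 mutated copy of Tbr1, the log2 fold change from WT was -0.01, with a 95% interval of -0.24 to 0.23 (exact permutation p = 0.944). A change as large as that in the Tbr1K228E/K228E embryos is outside this interval. From these same embryos, the paper already lists Wnt7b among its most strongly lowered genes of Tbr1K228E/K228E brains and describes it as a direct target of Tbr1. Primers for Wnt7b are among those of its qRT-PCR. That assay backed the changes of Tbr1 and Reln, but not of the other genes, although their directions were similar.

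The lower Wnt7b level remained in each fit that left out 1 embryo, with log2 fold changes of -0.87 to -0.72 against WT and -0.86 to -0.72 against Tbr1+/K228E, and all 10 fits of each comparison passed the adjusted threshold. Without the 3 embryos of the lowest meningeal score (WT embryo 3 and Tbr1K228E/K228E embryos 3 and 4), the values were -0.70 and -0.76, and neither passed with these fewer embryos (limma, Benjamini–Hochberg adjusted p = 0.120 and 0.0558). With the score of the neocortical markers as a covariate, the log2 fold changes were -0.83 against WT and -0.75 against Tbr1+/K228E, and both passed. With a block for the replicate numbers, Wnt7b passed against WT but not against Tbr1+/K228E embryos (limma, Benjamini–Hochberg adjusted p = 0.0646 for the latter).

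The level of Wnt7a did not follow that of Wnt7b. Normalized read counts of Wnt7a were 723 to 1017 in WT (median 813), 785 to 1055 in Tbr1+/K228E (median 904), and 773 to 1102 in Tbr1K228E/K228E embryos (median 948), so that the 3 genotypes overlapped. Fitted log2 fold changes of Wnt7a were 0.13 (95% interval -0.10 to 0.36) between Tbr1K228E/K228E and WT embryos and 0.09 (95% interval -0.14 to 0.32) between Tbr1+/K228E and WT embryos. In WT embryos the ratio of Wnt7b to Wnt7a per kilobase was 2.03 ± 0.124 (SD, n = 5). Tbr1+/K228E embryos had a ratio of 1.91 ± 0.286 (SD, n = 5), and Tbr1K228E/K228E embryos had a ratio of 1.09 ± 0.162 (SD, n = 5). Thus the ligands that stood far apart in WT embryos were at similar levels per kilobase in the Tbr1K228E/K228E embryos. This likeness rests on dividing by the length of all annotated exons, and the transcripts in use may differ in length. Without that division, the Tbr1K228E/K228E means were 1541 for Wnt7b and 931 for Wnt7a.

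The ligands together were lower by about the amount of Wnt7b. In WT embryos the 18 ligands summed to 1283 ± 113 (SD, n = 5) normalized read counts per kilobase. The sum was similar in Tbr1+/K228E embryos, at 1290 ± 79.4 (SD, n = 5), and lower in Tbr1K228E/K228E embryos, at 1051 ± 79.5 (SD, n = 5). Of these sums, Wnt7b made up 42.4% ± 3.54 (SD, n = 5), 42.0% ± 3.67 (SD, n = 5), and 30.02% ± 2.73 (SD, n = 5), in the same order of genotypes. With Wnt7b left out of the sum, the 3 genotypes had 736 ± 54.0 (SD, n = 5), 747 ± 38.6 (SD, n = 5), and 736 ± 74.8 (SD, n = 5) counts per kilobase. These sums are descriptions and were not tested.

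**Figure D2:**
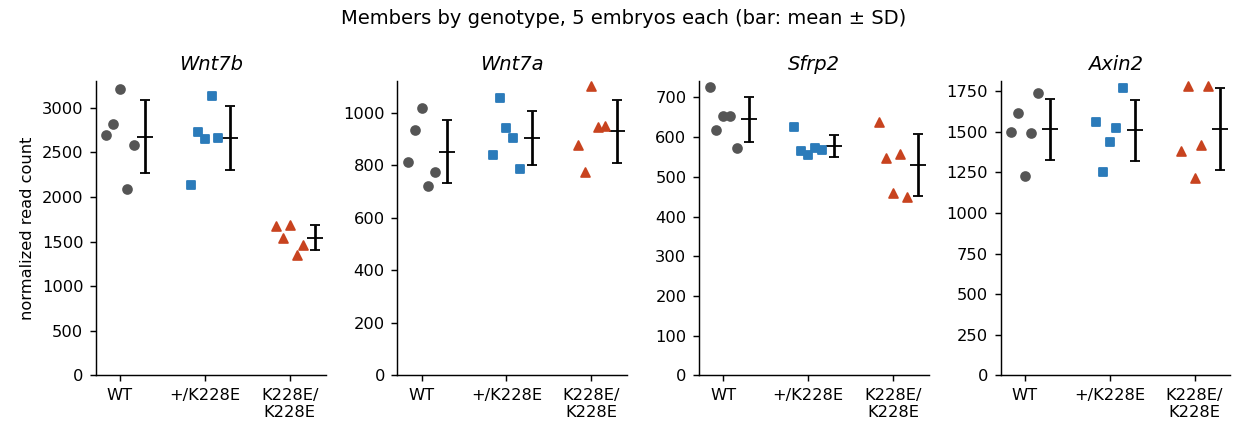
Normalized read counts of Wnt7b, Wnt7a, Sfrp2, and Axin2 in the 5 embryos of each genotype, with the mean and SD beside the points. For Wnt7b, all Tbr1K228E/K228E embryos (1353 to 1684) lie below the WT embryos (2083 to 3205); the genotypes overlap for the other genes.

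Across all 41 tested members, Wnt7b was the sole gene past the adjusted threshold. Between Tbr1K228E/K228E and WT embryos, 11 members had higher and 30 had lower mean log2 levels, against 8043 and 8464 of all tested genes. The median log2 fold change was -0.03 (all tested genes, -0.00). Of the members, 32 were within 0.2 of no change on the log2 scale, against 13628 of all 16507 tested genes. The 1 member past the adjusted threshold compares with 0.127% of all 16507 tested genes, and it was also the 1 member whose embryos did not overlap between the genotypes, against 0.594% of all genes. An unadjusted p under 0.05 was found for 2 members, Wnt7b and Sfrp2, both of them lower, against 3.23% of all genes.

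In Tbr1+/K228E embryos, no member stood apart from WT by any of these measures. None of the 41 members passed the adjusted threshold (limma, Benjamini–Hochberg), none had an unadjusted p under 0.05, and none had embryos that did not overlap. Among all genes the shares were 0%, 1.79%, and 0.260%. The mean log2 levels of 21 members were higher and those of 20 were lower, against 8063 and 8444 of all genes, with a median log2 fold change of 0.00. Of the members, 35 were within 0.2 of no change, against 13992 of all 16507 genes. Between Tbr1K228E/K228E and Tbr1+/K228E embryos, 1 member (Wnt7b) passed the adjusted threshold and did not overlap, where all genes had 0.0788% and 0.878%. An unadjusted p under 0.05 was found for Wnt7b and Wnt16, against 3.30% of all genes. In this comparison 16 members were higher and 25 lower, against 8287 and 8220 of all genes, with a median log2 fold change of -0.04.

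**Figure D3:**
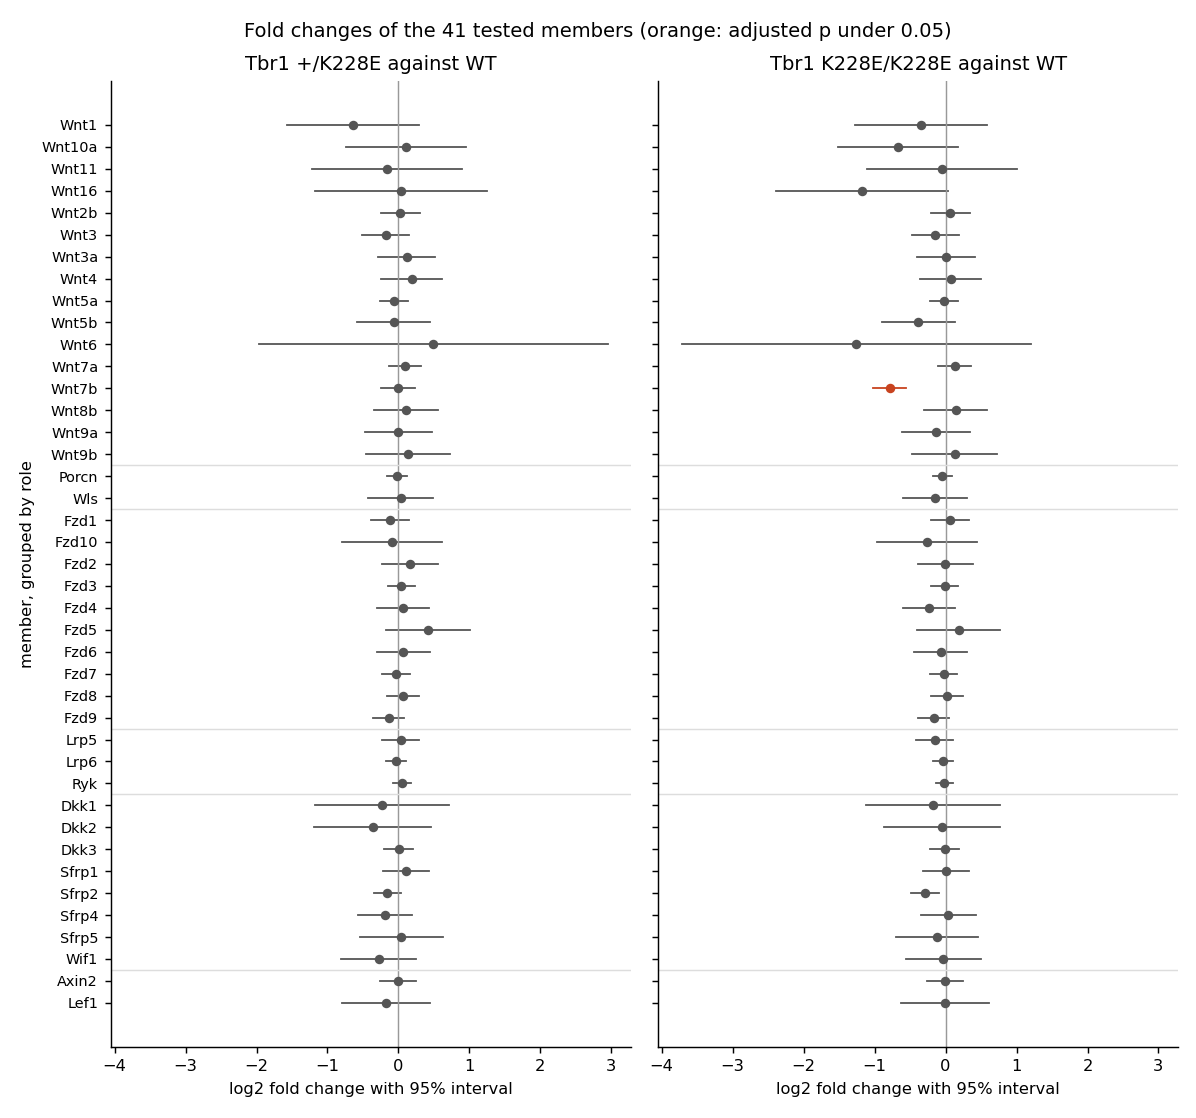
Log2 fold changes from WT with 95% intervals for the 41 tested members, grouped by role, in Tbr1+/K228E (left) and Tbr1K228E/K228E embryos (right). Wnt7b in Tbr1K228E/K228E embryos (-0.79) is the one colored value, past the adjusted threshold; the widest intervals are those of Wnt6.

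Among the other ligands, 15 were tested and none passed the adjusted threshold in any comparison. Wnt5a, Wnt3, Wnt4, and Wnt2b, the next most abundant after Wnt7a, had log2 fold changes of -0.02, -0.14, 0.07, and 0.07 between Tbr1K228E/K228E and WT embryos. The 95% interval was narrow for Wnt5a (-0.22 to 0.18) and wider for Wnt4 (-0.36 to 0.50). Ligands of the cortical hem, such as Wnt3a and Wnt8b, had log2 fold changes of 0.01 and 0.14 in this comparison. Wnt8b ran from 46.3 to 106 normalized read counts in WT and from 65.7 to 86.2 in Tbr1K228E/K228E embryos, so that the WT range enclosed the mutant range.

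Wnt16 was low in all embryos. Its normalized read counts were 13.0, 10.6, 4.05, 9.59, and 6.81 in WT embryos 1 to 5. They were 8.07, 16.1, 16.6, 4.58, and 4.02 in Tbr1+/K228E and 8.01, 3.84, 2.23, 0, and 7.17 in Tbr1K228E/K228E embryos. The lowest values were in Tbr1K228E/K228E embryos 3 and 4, which also had low meningeal scores, and the genotypes overlapped. The log2 fold change between Tbr1K228E/K228E and Tbr1+/K228E embryos was -1.21 (95% interval -2.42 to -0.00) (limma, Benjamini–Hochberg adjusted p = 0.996). Without the 3 embryos of the lowest meningeal score it was -0.42, and the part of the meninges in this value was not tested.

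Among members with a mean of at least 50, Wnt6 varied most between embryos, by 136-fold. Its normalized read counts were 116, 100.2, 2.96, 47.4, and 42.7 in WT embryos 1 to 5. They were 68.5, 108, 140.2, 14.6, and 31.6 in Tbr1+/K228E, and 63.7, 20.4, 2.24, 1.03, and 138 in Tbr1K228E/K228E embryos. The 3 lowest values belong to WT embryo 3 and Tbr1K228E/K228E embryos 3 and 4, the same embryos that had the lowest meningeal scores. The meningeal score, a mean of log2 values over 13 genes, was 4.36, 4.98, and 4.88 in these embryos and 7.41 to 9.84 in the other 12. Fitted log2 fold changes of Wnt6 were -1.26 (95% interval -3.72 to 1.20) between Tbr1K228E/K228E and WT embryos and 0.49 (95% interval -1.97 to 2.95) between Tbr1+/K228E and WT embryos, where it turned to -0.34 without WT embryo 3. These intervals are too wide to tell a difference of several fold from none.

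Of the proteins that act on the ligand before its release, Porcn was even across embryos and Wls was not. Porcn had normalized read counts of 1282, 1371, 1533, 1314, and 1347 in WT, 1276, 1326, 1242, 1506, and 1404 in Tbr1+/K228E, and 1224, 1293, 1436, 1401, and 1283 in Tbr1K228E/K228E embryos. Its log2 fold change was -0.04 (95% interval -0.18 to 0.09) between Tbr1K228E/K228E and WT embryos. Wls ran from 880 to 1763 in WT, from 1226 to 1567 in Tbr1+/K228E, and from 799 to 1876 in Tbr1K228E/K228E embryos, and its log2 fold change of -0.15 had a 95% interval of -0.60 to 0.31. The lowest Wls value of WT and the 2 lowest of Tbr1K228E/K228E embryos were again in the 3 embryos of low meningeal score.

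None of the 10 frizzled receptors changed between genotypes past the adjusted threshold, and none had an unadjusted p under 0.05. Fzd1 had normalized read counts of 1849, 1945, 1710, 1993, and 1817 in WT, 1651, 1245, 1717, 1881, and 2195 in Tbr1+/K228E, and 1864, 2476, 1663, 1921, and 1896 in Tbr1K228E/K228E embryos. The WT embryos were the most even, and the ranges of both mutant genotypes enclosed them. In the fit, Fzd1 had a log2 fold change of 0.07 (95% interval -0.20 to 0.33) between Tbr1K228E/K228E and WT embryos and -0.12 (95% interval -0.39 to 0.14) between Tbr1+/K228E and WT embryos. Over the 10 receptors, the log2 fold changes between Tbr1K228E/K228E and WT embryos ran from -0.26 (Fzd10) to 0.18 (Fzd5), and 8 of them were within 0.2 of no change.

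Of the coreceptors, Ryk and Lrp6 had narrow intervals and Lrp5 had a wider one. Ryk had normalized read counts of 1841, 1881, 1950, 1631, and 1804 in WT, 1750, 1926, 1903, 1815, and 2020 in Tbr1+/K228E, and 1915, 1629, 1888, 1727, and 1845 in Tbr1K228E/K228E embryos. Its log2 fold change between Tbr1K228E/K228E and WT embryos was -0.02 (95% interval -0.14 to 0.11), and that of Lrp6 was -0.03 (95% interval -0.18 to 0.11). Lrp5, which also serves the Norrin signal in vessels, had a log2 fold change of -0.15 (95% interval -0.42 to 0.11).

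Sfrp2 followed Wnt7b in the order of unadjusted p between Tbr1K228E/K228E and WT embryos and did not pass the correction over all genes. This secreted frizzled-related protein had normalized read counts of 728, 618, 654, 652, and 572 in WT embryos 1 to 5. They were 625, 566, 556, 574, and 567 in Tbr1+/K228E and 638, 548, 460.0, 558, and 449 in Tbr1K228E/K228E embryos. The 4 lower Tbr1K228E/K228E embryos lay below all WT embryos and embryo 1 lay among them. Embryo 1 of each mutant genotype had the highest Sfrp2 and also the highest summed Hox level of its genotype (3966 in Tbr1+/K228E and 576 in Tbr1K228E/K228E). Among WT embryos, Sfrp2 was highest in embryo 1 and the Hox level in embryo 4. The part of hindbrain tissue in the Sfrp2 values was not tested. The log2 fold change was -0.29 (95% interval -0.48 to -0.10) (limma p = 0.00607, Benjamini–Hochberg adjusted p = 1.00), and the exact permutation test of Sfrp2 alone gave p = 0.0317. In Tbr1+/K228E embryos it was -0.16 (95% interval -0.35 to 0.04). The paper, with a count model and an empirical null, lists Sfrp2 among its differentially expressed genes of Tbr1K228E/K228E embryos.

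Sfrp1, although much more abundant, did not show such a difference. In WT embryos 1 to 5 it had 2676, 2634, 2782, 1768, and 1917 normalized read counts, with 2429, 3049, 2699, 2126, and 2259 in Tbr1+/K228E, and 2738, 1707, 2498, 2214, and 2688 in Tbr1K228E/K228E embryos. Each genotype held high and low embryos, and the log2 fold change between Tbr1K228E/K228E and WT embryos was 0.01 (95% interval -0.31 to 0.34). The other antagonists tested were Sfrp4, Sfrp5, Wif1, Dkk1, Dkk2, and Dkk3, whose log2 fold changes in this comparison ran from -0.17 (Dkk1) to 0.04 (Sfrp4). Dkk3 had the narrowest interval of these (-0.22 to 0.19).

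Of the members that report the response, Axin2 showed no detectable difference between genotypes. Its normalized read counts were 1499, 1614, 1230, 1490.3, and 1740 in WT, 1559, 1252, 1435, 1525, and 1768 in Tbr1+/K228E, and 1382, 1784, 1214, 1421, and 1780 in Tbr1K228E/K228E embryos. The 3 ranges nearly coincided. The log2 fold change was -0.01 (95% interval -0.26 to 0.25) in Tbr1K228E/K228E and -0.01 (95% interval -0.26 to 0.25) in Tbr1+/K228E embryos relative to WT, which leaves room for differences of up to these bounds. Lef1, a partner of beta-catenin on DNA, was less even, with 581 to 1031 normalized read counts in WT, 379 to 1090.2 in Tbr1+/K228E, and 490.0 to 1501 in Tbr1K228E/K228E embryos. Its log2 fold change between Tbr1K228E/K228E and WT embryos was -0.01 (95% interval -0.63 to 0.61).

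The other genes of the pathway were taken from a list of 85, of which 84 were in the table and 81 were tested. Between Tbr1K228E/K228E and WT embryos, 39 were higher and 42 lower (median log2 fold change -0.00), where all tested genes had 8043 higher and 8464 lower. Of the 81, 1 passed the adjusted threshold, against 0.127% of all genes, and 2 had an unadjusted p under 0.05, Lypd6 and Apcdd1, against 3.23% of all genes. The gene past the threshold was Lypd6, a membrane-bound protein that binds Lrp6 and enhances Wnt signaling. Its normalized read counts were 542, 613, 644, 584, and 543 in WT, 470, 508, 480, 484, and 446 in Tbr1+/K228E, and 389, 398, 487, 385, and 430 in Tbr1K228E/K228E embryos. All embryos of both mutant genotypes lay below all WT embryos, and the mutant genotypes overlapped with each other. Lypd6 was the 1 pathway gene without overlap with WT in Tbr1K228E/K228E and in Tbr1+/K228E embryos, against 0.594% and 0.260% of all genes. The log2 fold changes of Lypd6 relative to WT were -0.49 (limma, Benjamini–Hochberg adjusted p = 0.0102) in Tbr1K228E/K228E and -0.29 (limma, Benjamini–Hochberg adjusted p = 0.999) in Tbr1+/K228E embryos. With Tbr1K228E/K228E and WT embryos fitted alone, Lypd6 no longer passed. The paper, with a count model and an empirical null, called Lypd6 lower in both mutant genotypes. Its qRT-PCR could not back the change of Lypd6, although the direction was similar.

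The means of Wnt7b and Lypd6 had the same order over the genotypes, with Tbr1+/K228E embryos at different distances from WT, a difference that was not tested. Tbr1+/K228E embryos were at the WT level of Wnt7b (means of 2660 and 2676), whereas for Lypd6 their mean of 477 lay between 585 in WT and 418 in Tbr1K228E/K228E embryos. Between the mutant genotypes, Lypd6 had a log2 fold change of -0.20 (95% interval -0.35 to -0.04; limma, Benjamini–Hochberg adjusted p = 0.996).

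By role, the 17 intracellular transducers of the list, such as the dishevelled proteins, Gsk3b, and beta-catenin (Ctnnb1), were the most even. All 17 were within 0.2 of no change on the log2 scale in all 3 comparisons. Of these, 15 had higher and 2 had lower mean log2 levels in Tbr1K228E/K228E than in WT embryos. Of the 8 tested feedback and target genes of the list, 3 were higher and 5 lower in this comparison (median log2 fold change -0.05). Of the 23 tested surface and secreted modulators, 5 were higher and 18 lower in this comparison (median log2 fold change -0.16). In Tbr1+/K228E embryos 14 of these modulators were higher and 9 lower than in WT. Some of them were lowest in the 3 embryos of low meningeal score, such as Gpc3, a surface proteoglycan, whose normalized read counts were 176 in WT embryo 3 and 210.0 and 159 in Tbr1K228E/K228E embryos 3 and 4, but 407 to 1359 in the other 12. The part of the meninges in the counts of this group was not tested.

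Adgra2 and Reck form the receptor complex that responds to Wnt7a and Wnt7b in brain endothelium. Adgra2 had a log2 fold change between Tbr1K228E/K228E and WT embryos of -0.24 (95% interval -0.93 to 0.44), and that of Reck was -0.08 (95% interval -0.38 to 0.22). Neither passed the adjusted threshold. Adgra2 was lowest in the same 3 embryos, with 353 normalized read counts in WT embryo 3 and 334 and 422 in Tbr1K228E/K228E embryos 3 and 4.

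Apcdd1, Lgr5, and Tle4 were the other pathway genes with the smallest p in a comparison. Apcdd1, a membrane-bound Wnt inhibitor, had 2263 to 3292 normalized read counts in WT, 2464 to 2833 in Tbr1+/K228E, and 1555 to 2718 in Tbr1K228E/K228E embryos, so that the genotypes overlapped. Its lowest values were 1555 and 1901 in Tbr1K228E/K228E embryos 3 and 4, and 2263 in WT embryo 3 was the lowest of WT. For Apcdd1 the log2 fold change between Tbr1K228E/K228E and WT embryos was -0.33 (95% interval -0.62 to -0.04; limma, Benjamini–Hochberg adjusted p = 1.00). Lgr5, a receptor for R-spondins and a Wnt target, had normalized read counts of 119, 115, 60.7, 128, and 122 in WT, 91.1, 37.8, 68.6, 43.5, and 91.6 in Tbr1+/K228E, and 69.5, 90.7, 108, 97.2, and 62.2 in Tbr1K228E/K228E embryos. WT embryo 3 lay far below the other WT embryos, within the range of the mutants. For Lgr5 the log2 fold change was -0.74 between Tbr1+/K228E and WT embryos (limma, Benjamini–Hochberg adjusted p = 0.999) and -0.33 (95% interval -0.91 to 0.25) between Tbr1K228E/K228E and WT embryos. Tle4, a corepressor and a marker of deep-layer neurons, had 2777 to 3142 normalized read counts in Tbr1K228E/K228E and 3374 to 3887 in Tbr1+/K228E embryos, without overlap. Its log2 fold change in this comparison was -0.27 (limma, Benjamini–Hochberg adjusted p = 0.593). WT embryos, with 2846 to 4022, overlapped with both. Between the mutant genotypes, 2 of the 81 tested pathway genes, Tle4 and Tle3, did not overlap, against 0.878% of all genes. Of the 81 pathway genes, 0 passed the adjusted threshold between these mutant genotypes and 0 passed between Tbr1+/K228E and WT embryos, where all genes had 0.0788% and 0%. An unadjusted p under 0.05 was found for 3 and 4 of them, against 3.30% and 1.79% of all genes.

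Several members varied between embryos together with markers of a cell type. For 5 marker scores whose embryos did not fall into separate clusters (18 Hox, 10 endothelial, 9 cortical hem, 11 neocortical, and 28 cell-cycle genes), correlations with the 41 members were computed over the 15 embryos on log2 values centered on the genotype mean. Of the 205 relations, 29 passed Benjamini–Hochberg correction of the permutation p by both Pearson's r and Spearman's rho. The meningeal, choroid plexus, and thalamic scores fell into clusters, and no r was computed for them. No member is part of a score, but a common library and tissue block underlies both values of each point.

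Cell-cycle genes, which mark dividing progenitors, varied with Sfrp1 (r = 0.969, permutation p = 1e-05, adjusted p = 0.00041; rho = 0.929, permutation p = 4e-05, adjusted p = 0.00205) and Fzd2 (r = 0.952, rho = 0.907). Without the 2 embryos farthest from the median score, r was 0.946 for Sfrp1 and 0.934 for Fzd2. Ryk, Lrp5, and Fzd8 also passed with a positive sign, and Lef1 (r = -0.635) and Wnt3 (r = -0.539) with a negative sign. Their r without the 2 farthest embryos ranged in size from 0.501 (Lef1, negative) to 0.730 (Fzd8).

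The endothelial score varied with 10 members, all positively: Wnt6 (r = 0.973, rho = 0.932), Fzd6 (r = 0.967, rho = 0.900), Wls (r = 0.933, rho = 0.939), Fzd7, Fzd4, Wnt4, Wnt9a, Wnt16, Dkk2, and Wnt5a. Fzd4 is the receptor for Norrin in vessels, and its r was 0.884. For Wnt6, r was 0.952 without the 2 embryos farthest from the median score, Tbr1K228E/K228E embryo 4 and WT embryo 3. Tbr1K228E/K228E embryo 3, also low in this score, remained. This r therefore cannot show whether the relation holds without the low embryos. The cortical hem score varied with 9 members, all of them among these 10. Wnt3a (r = -0.065) and Wnt8b (r = 0.195), named above as ligands of the hem, did not pass with this score. The same 3 embryos, WT embryo 3 and Tbr1K228E/K228E embryos 3 and 4, were lowest in the endothelial, cortical hem, and meningeal scores, so that these scores cannot be told apart here.

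The neocortical score varied with Wnt7a (r = 0.905, permutation p = 0.00011, adjusted p = 0.00226; rho = 0.864, permutation p = 0.00068, adjusted p = 0.00996), with Wnt7b (r = 0.716, permutation p = 0.00771, adjusted p = 0.0427; rho = 0.725, permutation p = 0.00675, adjusted p = 0.0474), and negatively with Wif1 (r = -0.692, rho = -0.682). Without the 2 farthest embryos, r was 0.884 for Wnt7a, 0.688 for Wnt7b, and -0.696 for Wif1. The Hox score had no relation that passed by both measures. With this score, Sfrp2 (r = 0.587, rho = 0.586) and Fzd3 (r = -0.764, rho = -0.686) passed by Pearson's r alone.

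**Figure D4:**
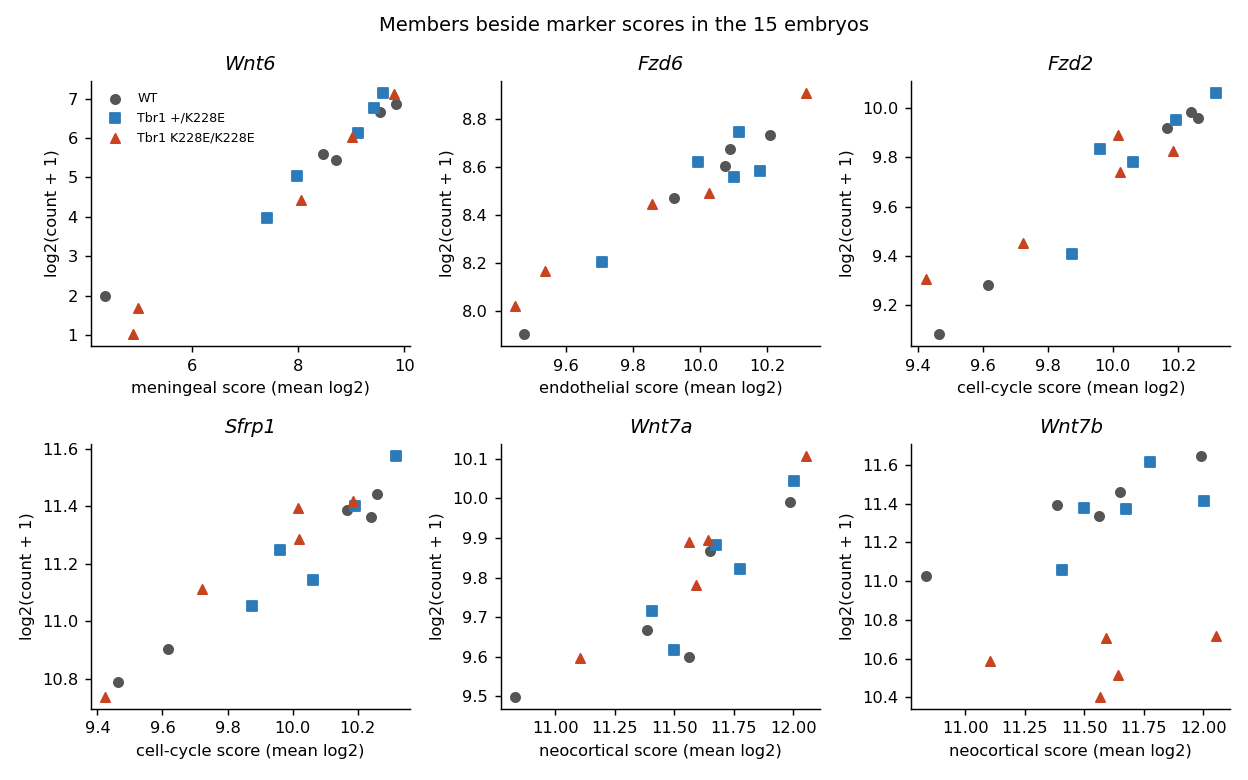
Log2 levels of 6 members against the marker score named on each horizontal axis (mean log2 level of the score's genes) in the 15 embryos, marked by genotype. Wnt6 drops to its lowest values in the 3 embryos with meningeal scores of 4.36 to 4.98, Sfrp1 and Fzd2 are higher at higher cell-cycle scores, and for Wnt7b the Tbr1K228E/K228E embryos lie below the others over the whole range of the neocortical score.

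Promoter sequences from RefSeq (GRCm38.p6), from 250 bases before to 50 bases after a transcription start, were matched for 30 members in 36 windows, and Wnt7b was not among them. The T-box half-site AGGTGTGA, searched on both strands, was in 0 of the 36 windows and in 1.28% of all 32851 windows. The TCF/LEF core CTTTGAT, which does not overlap the other motif in its letters, was in 2 windows, those of Wnt11 and Wnt5b, and in 3.73% of all windows. These letters say nothing of sites outside the windows.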

How the data were processed

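RNA was sequenced as paired-end reads from 15 embryos (5 per genotype), with a kit and counting that are not described as strand-specific. The authors estimated transcript abundance on GRCm38 with Salmon 0.11.2 and GC bias correction, summed it to genes with tximport in R 3.5.3, and divided the counts by DESeq2 1.22.2 size factors. What was deposited is this normalized signal, 1 value for each gene in each embryo, rather than whole reads, and no count model was fitted. The normalized values summed to 30.5 to 31.8 M per embryo (M, megacounts after scaling). These sums were taken after division by the size factors, so they do not give the sequencing depth of each embryo.

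Symbols, coordinates, and exon lengths came from the GENCODE M21 annotation, in which 19452 of 19475 identifiers had a symbol. Genotypes were compared with limma 3.58.1 in R 4.3.3 (lmFit, eBayes with a trend) on log2(value + 1), with all 15 embryos in one fit and Benjamini–Hochberg correction over 16507 genes, whose mean was 5 or more, at a threshold of 0.05. Fold changes on this scale understate those of low genes. Single members were compared by exact permutation tests, and correlations used 100000 permutations. The procedure was tested on simulated data.

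Members, gene lists, and tests were chosen with earlier results of these data known. Members named with all values had an unadjusted p under 0.05 in a comparison, the highest WT level per kilobase in their role, or an 8-fold range among members with a mean of at least 50. For other pathway genes, those past the adjusted threshold or the 2 with the smallest p per comparison were named. Wnt7a, Gpc3, Adgra2, and Reck and the remaining members with values were picked with their values in view. The embryos are separate animals, and replicate numbers carry no stated pairing. Alternatives were other pseudocounts, filters, and scalings, sex or tissue scores as covariates, a replicate block, robust eBayes, 2 genotypes alone, an empirical null, and leaving out embryos.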

Additional observations from a re-analysis of the deposited data

Results flagged for a closer look

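Sfrp2 in Tbr1+/K228E embryo 1 stood apart from the other embryos of its genotype. Its normalized read count was 625, against 556 to 574 in the other 4, and the gap to the nearest embryo was 0.739 of the whole range, which is above Dixon's critical value for 5 samples. This was 1 of 30 groups tested in this way, of which chance alone would mark about 1 in 20. The same embryo had the highest Hox score of all embryos, at 6.58, and the part of hindbrain tissue in this value was not tested.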

How the results depend on the processing

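Counts of members and pathway genes past the adjusted threshold stayed within 1.5-fold in 145 of 150 recomputed values. The others were 0 members between Tbr1K228E/K228E and WT embryos and 0 between Tbr1K228E/K228E and Tbr1+/K228E embryos without the 3 embryos of the lowest meningeal score, 0 members between Tbr1K228E/K228E and Tbr1+/K228E embryos with the replicate block, 0 pathway genes between Tbr1K228E/K228E and WT embryos with those genotypes alone, and 1 pathway gene (Tle4) between Tbr1K228E/K228E and Tbr1+/K228E embryos with the neocortical score as a covariate. Leaving out the 3 embryos, leaving out the 2 of the highest Hox score (WT embryo 4 and Tbr1+/K228E embryo 1), and the neocortical covariate were chosen after the data had been seen. The causes were not tested, and some of these fits also had fewer embryos.

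Same-numbered embryos are different animals, and no pairing is stated for them. Their deviations correlated with r over 0.1 in 4 of 5 pairs of Tbr1K228E/K228E with WT (r from 0.0238 to 0.506). The count was 2 of 5 for Tbr1+/K228E with WT and 2 of 5 for Tbr1K228E/K228E with Tbr1+/K228E. The best match was the own number in 2, 1, and 2 of 5, in the same order. Embryos 4 and 5 were the males of every genotype, so that the numbers also carry sex. These values do not settle whether the numbers mark a shared block beyond that. With the replicate block, Wnt7b had an adjusted p of 0.0290 against WT and 0.0646 against Tbr1+/K228E embryos (limma with Benjamini–Hochberg correction), and its log2 fold changes stayed at -0.79 and -0.78.

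Signs turned only among log2 fold changes that had not passed. Without the 3 embryos of the lowest meningeal score, those between Tbr1K228E/K228E and WT were 0.049 for Axin2 and 0.0044 for Ryk. Those between Tbr1+/K228E and WT were 0.063 for Wnt7b, 0.021 for Porcn, -0.18 for Wnt16, and -0.34 for Wnt6, and Wnt6 between the mutant genotypes was 0.047. With the Hox, meningeal, and choroid plexus scores as covariates, Axin2 (0.035) and Sfrp1 (-0.022) turned between Tbr1K228E/K228E and WT, and Wnt16 (-0.36) and Wnt6 (-0.13) between Tbr1+/K228E and WT. With the neocortical covariate, Axin2 was 0.032 and Sfrp1 -0.045 between Tbr1K228E/K228E and WT, and Axin2 was 0.060 between Tbr1+/K228E and WT. Quantile normalization gave Axin2 0.00075 between Tbr1K228E/K228E and WT and 0.0029 between Tbr1+/K228E and WT. Sfrp1 was -0.084 between Tbr1K228E/K228E and WT without the 2 embryos of the highest Hox score.

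Leaving out 1 embryo at a time, the log2 fold changes between Tbr1K228E/K228E and WT ran from -0.078 to 0.071 for Axin2, from -0.021 to 0.12 for Fzd1, from -0.056 to 0.019 for Ryk, and from -0.084 to 0.13 for Sfrp1. Between Tbr1+/K228E and WT they ran from -0.079 to 0.059 for Axin2, from -0.060 to 0.021 for Porcn, from -0.19 to 0.26 for Wnt16, from -0.34 to 0.95 for Wnt6, and from -0.093 to 0.072 for Wnt7b.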
